A study of Mus musculus with 26 samples.

Results

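The DNA replication genes described here are 41 genes that license, unwind and copy DNA, of 18194 genes measured. A gene was taken where a probe set of the array is annotated to its symbol alone, and where several were, the brightest by its average across the arrays stood for it. All 41 members were found this way. They have 93 such probe sets in all, and 10 members have a single one. Levels were measured on 26 Affymetrix mouse arrays, 1 per sample, in 8 populations of blood cell progenitors. All donors were labelled as male, of strain C57/Bl6 and 2 months old, and no treatment or allele is named. The bone marrow populations were MPPFL- (n = 5), MPPFL+, CMP, GMP and CLP (n = 3 each), and those of the thymus were DN1, DN2 and DN3 (n = 3 each). MPP usually stands for multipotent progenitors, here without or with a marker written FL. CMP and GMP are the myeloid progenitors, common ones and those restricted to granulocytes and macrophages, and CLP are common lymphoid progenitors, which another label of the same samples calls ALP. DN1 to DN3 are successive thymocyte stages that lack CD4 and CD8. The labels name no sort gate and do not say whether animals were pooled or replicates were different mice, so p-values here cover just the spread among these samples, which may be technical.

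Copying of DNA starts where the origin recognition complex sits on the chromosome. Cdc6 and Cdt1 load the ring of MCM proteins there, and Mcm10, Cdc45 and the GINS proteins turn the loaded ring into a running helicase. Primase and the polymerases then copy the opened strands while a sliding clamp holds them in place, and many of these genes are switched on by E2F transcription factors as a cell enters S phase, so that their transcripts are commonly read as a sign of dividing cells. In the thymus, early progenitors divide before and after they rearrange the T cell receptor beta gene, and the DN3 stage is known to hold many resting cells that do so.

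The arrays were first set against their labels. On the log2 scale Flt3, a cytokine receptor, averaged 13.31 in MPPFL+ and 10.99 in MPPFL-, Mpo, a granule enzyme, was highest in GMP at 16.11, and Il2ra, which is CD25, was at 13.16 in DN3, 13.14 in DN2 and 7.37 in DN1. Cd4 and Cd8b1 stayed within 1 log2 unit of the floor of the scale, 2.17, in all DN populations. Cd8a of the same list lay further above it, up to 4.44 on a DN2 array, and Ccr7 reached 5.14 on a DN1 array. By the poly-A controls added to the RNA the arrays formed 6 clusters, of which 1 held MPPFL-, MPPFL+ and CLP and 1 held DN1 and DN2, while DN3 shared none with DN2. The populations compared shared a cluster only in MPPFL+ with MPPFL-, CLP with MPPFL+ and DN2 with DN1. In the other comparisons population and cluster cannot be told apart, and a fit with the cluster as a random block does not separate them. The donors are labelled male. Xist was nevertheless at 12.21 and 13.59 on DN1 replicates 1 and 3 and at 12.99 and 6.30 on DN2 replicates 2 and 3. The Y-linked Eif2s3y was at 2.62 on that DN1 replicate 3 and 2.17 on that DN2 replicate 2. On DN1 replicate 1 and DN2 replicate 3 it was at 12.76 and 13.34, so that these arrays had both signals. Comparisons that involve DN1 or DN2 are therefore given with and without these 4 arrays. A gene is said to have passed, risen or fallen where its Benjamini-Hochberg adjusted p in limma was under 0.05 over all 18194 genes, and log2 differences are written in log2 units.

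More of the replication genes were highest in DN2, and more were lowest in DN3, than in any other population. Of the 41 members, 21 had their highest population mean in DN2, 8 in CLP, 7 in GMP, 3 in MPPFL+ and 2 in CMP. The lowest mean was in DN3 for 27 members and in DN1 for 6. These ranks use all arrays, with DN2 replicates 2 and 3 and their Xist signal among them, and were not taken without the arrays with Xist signal. Across the 8 populations 40 of 41 members passed the F test, against 58.1% of all genes, and against 91.8% of the 9097 genes whose mean lies above the median over genes. The exception was Tyms, which makes thymidylate (adjusted p = 0.0684). No member came within 1 log2 unit of the floor on any array. In sorted populations measured in bulk, fewer cells that are copying DNA and less of these transcripts per cell cannot be told apart.

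**Figure D1:**
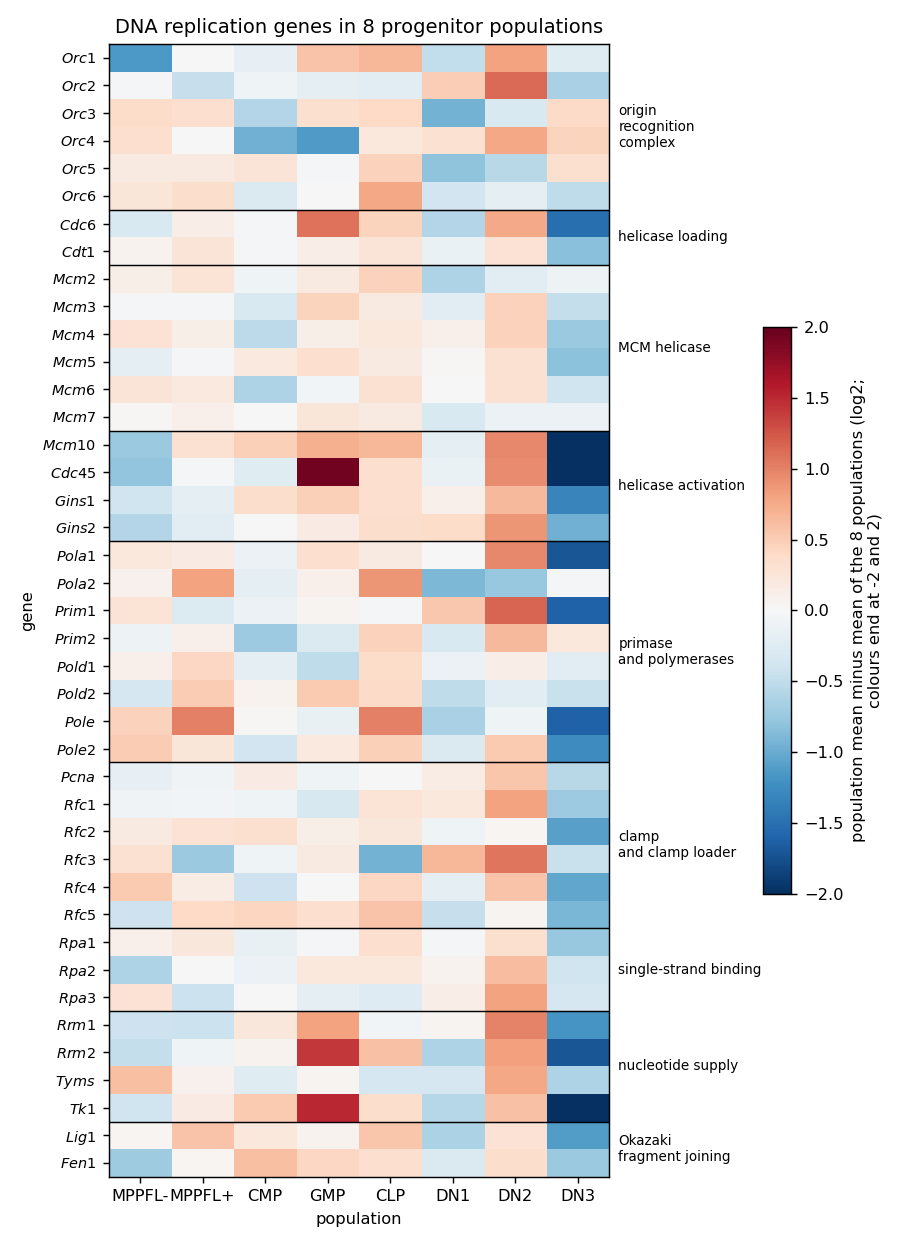
Colour gives each population mean minus the mean of the 8 population means of the same gene (log2), with genes in rows grouped by role and populations in columns. The DN3 column is the bluest, most of all for Mcm10, Cdc45, Tk1, Rrm2, Pola1, Pole and Prim1, while Orc3, Orc4, Orc5 and Prim2 are red there. Cdc45, Tk1 and Rrm2 are darkest red in GMP.

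Each member was also set against the mean of its own 8 population means, and the median of these differences was taken over the 41 members on each array, as a description without a test. On the DN3 arrays it was -0.78, -0.68 and -0.74 log2 units, and on the DN2 arrays 0.34, 0.63 and 0.59. On the DN1 arrays it was -0.10, -0.20 and -0.17, and on the CLP arrays 0.26, 0.37 and 0.34. All DN3 arrays were thus far below all others, and DN2 replicates 2 and 3 were the highest. Those 2 DN2 arrays have Xist signal, and DN2 replicate 1, which lacks it, lay within the range of the CLP arrays. Population means of this median were 0.02 in MPPFL-, 0.14 in MPPFL+, -0.07 in CMP and 0.18 in GMP, with overlap between MPPFL+ and MPPFL- and between GMP and MPPFL+. The same median over the 9097 genes above the median level averaged 0.00 in DN3, with DN3 replicate 3 at -0.21 below the other two at 0.09 and 0.12, and -0.07 in DN2. It averaged 0.20 in MPPFL+ and 0.19 in CLP.

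**Figure D2:**
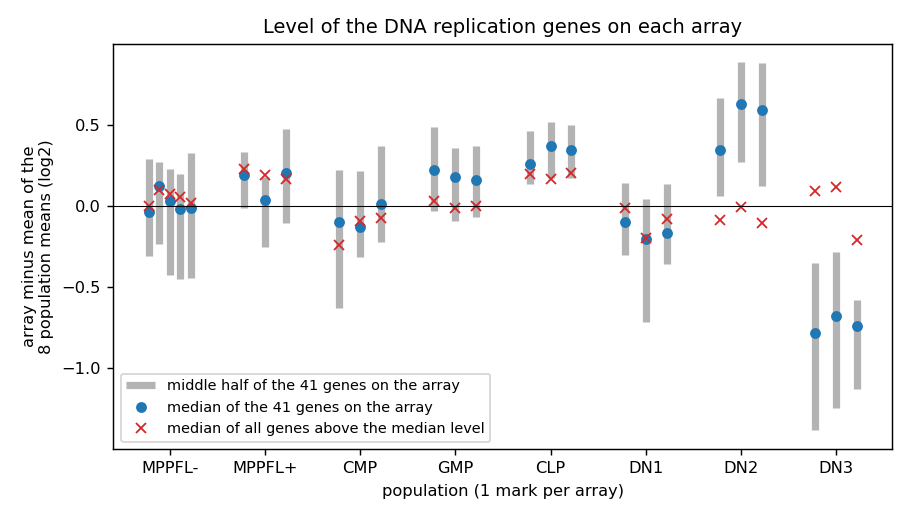
For each array (grouped by population on the x axis) the blue point is the median over the 41 genes of the level minus the gene's mean of population means (log2), the grey bar spans their middle 50%, and the red cross is the same median over all genes above the median level. DN3 points lie between -0.78 and -0.68 and DN2 points between 0.34 and 0.63, while the crosses lie between -0.21 and 0.12 in DN3 and between -0.11 and -0.01 in DN2.

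Members differed widely in how far they moved. The range of population means was largest for Cdc45, at 3.94 log2 units or 15.4-fold, followed by Tk1 (3.69), Mcm10 (3.15), Rrm2 (3.12) and Prim1 (2.78). It was smallest for Mcm7, at 0.55 log2 units or 1.47-fold. Over the 8 population means, which share arrays and scale, Cdt1 and Pola1 (r = 0.94 each) and Rpa1 (r = 0.93) followed the median of the other members most closely. Orc5 (r = -0.21), Orc3 (r = -0.02), Orc4 (r = -0.01) and Pola2 (r = 0.10) followed it least. These r are descriptions over 8 points.

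Because E2F factors are known to act at many of these genes, RefSeq promoter windows (GRCm38.p6, 250 bases before to 50 after the start) were searched for the letters TTTCGCGC or TTTGGCGC on either strand. A window was at hand for 35 of 41 members, and 10 of them, or 28.6%, held a match, against 0.929% of all 27025 genes with a window. They are Orc1, Cdt1, Mcm3, Mcm5, Mcm6, Mcm7, Pola1, Pole2, Rfc3 and Lig1. The median range of population means was 1.42 log2 units in these 10 members and 1.48 in the 25 without a match. Each window printed here holds 1 match, which is a run of letters and not a shown binding site. Below are the windows of the matching members with the widest ranges, Pola1 (2.68 log2 units) and Rfc3 (2.01), and of Mcm7, the member with the narrowest, with the match in capitals. The windows are at chrX:93632106-93632405, chr5:151651159-151651458 and chr5:138171834-138172133, all on the minus strand and written 5′ to 3′ along the gene.
Pola1: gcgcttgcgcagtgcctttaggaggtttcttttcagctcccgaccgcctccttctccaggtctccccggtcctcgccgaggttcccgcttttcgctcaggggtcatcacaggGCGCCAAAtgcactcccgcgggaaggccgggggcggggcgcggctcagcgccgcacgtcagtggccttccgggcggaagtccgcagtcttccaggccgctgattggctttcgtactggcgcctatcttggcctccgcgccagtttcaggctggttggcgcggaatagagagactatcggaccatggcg
Rfc3: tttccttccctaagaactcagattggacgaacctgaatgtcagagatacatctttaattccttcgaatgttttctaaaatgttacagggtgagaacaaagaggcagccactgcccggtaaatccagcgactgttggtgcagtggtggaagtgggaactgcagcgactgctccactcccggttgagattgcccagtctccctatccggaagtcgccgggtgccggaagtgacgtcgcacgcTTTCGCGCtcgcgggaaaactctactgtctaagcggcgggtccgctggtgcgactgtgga
Mcm7: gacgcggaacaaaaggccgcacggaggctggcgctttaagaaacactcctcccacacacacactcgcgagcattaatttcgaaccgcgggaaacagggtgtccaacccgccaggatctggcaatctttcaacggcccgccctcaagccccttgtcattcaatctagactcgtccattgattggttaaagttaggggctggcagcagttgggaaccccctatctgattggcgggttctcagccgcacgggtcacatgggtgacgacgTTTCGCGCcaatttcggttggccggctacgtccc
The match lies at bases -138 to -131 from the start in Pola1, where it reads TTTGGCGC on the other strand, at -10 to -3 in Rfc3 and at 17 to 24 in Mcm7. A match was seen in Pola1, which was 6.39-fold lower in DN3 compared with DN2. It was also seen in 1 of the 2 windows of Mcm7, the member that moved least.

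The step to DN3 had the most members that passed. In DN3 compared with DN2, 31 of the 41 members fell, where 14.4% of all genes fell, and 1 member rose, where 16.7% of all genes rose. Among the 9097 genes above the median level 2294 fell and 2476 rose. The median change of the members was -1.13 log2 units, against 0.05 over those 9097 genes, and 36 of 41 members had a negative estimate. With quantile normalization between arrays 31 fell and 1 rose. Without the arrays with Xist signal, which leaves a single DN2 array whose spread is taken from the other groups, 27 fell and 1 rose.

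Of the origin recognition complex, which marks origins, 2 of 6 members fell and 1 rose. Orc2 was at 8.94, 9.18 and 9.12 in DN3, against 10.75, 10.76 and 11.05 in DN2, which is 3.41-fold lower with no overlap. Orc1, its largest subunit, fell by 1.04 log2 units. Orc5 ran the other way, at 10.20, 10.33 and 9.73 in DN3, against 9.30, 9.24 and 9.12 in DN2. All its DN3 arrays were above all its DN2 arrays, and the rise of 0.87 (SE 0.20, adjusted p = 0.00217) was the only one among the members in the fit to all arrays. Without DN3 replicate 3 there were 4 rises, of Orc5 (1.05), Pola2 (1.12), Orc3 (0.94) and Mcm2 (0.36), and 31 falls. Orc3 differed by 0.70, Orc4 by -0.32 and Orc6 by -0.31, and none of these passed.

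Both helicase loaders fell. Cdc6, which recruits the MCM ring, was at 9.99, 9.95 and 10.90 in DN3, against 12.37, 12.58 and 12.67 in DN2, a 4.80-fold difference. Cdt1, its partner, fell 2.16-fold. The MCM helicase itself moved less. Of its 6 subunits Mcm3, Mcm4, Mcm5 and Mcm6 fell, by 0.70 to 1.20 log2 units. Mcm7 was at 14.71, 14.84 and 14.23 in DN3, against 14.50, 14.64 and 14.63 in DN2, and Mcm2 was at 12.14, 12.28 and 11.50 in DN3, against 11.83, 11.95 and 11.77 in DN2. The groups overlapped for both, and the differences of 0.00 (SE 0.12) and 0.13 (SE 0.15) did not pass.

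The proteins that start the loaded helicase had the deepest falls. Mcm10 was at 7.72, 7.92 and 8.31 in DN3, against 10.96, 11.12 and 11.31 in DN2, which is 8.86-fold lower (difference -3.15, SE 0.19, adjusted p = 1.01e-10). Cdc45, which binds the MCM ring, was at 5.93, 6.11 and 6.29 in DN3, against 8.92, 9.36 and 8.96 in DN2, which is 7.82-fold lower (-2.97, SE 0.27, adjusted p = 4.27e-08). For each gene the groups lay more than 2 log2 units apart at their closest. Gins1 and Gins2, subunits of the GINS complex, fell 3.92-fold and 3.59-fold, so that all 4 members of this group fell.

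**Figure D3:**
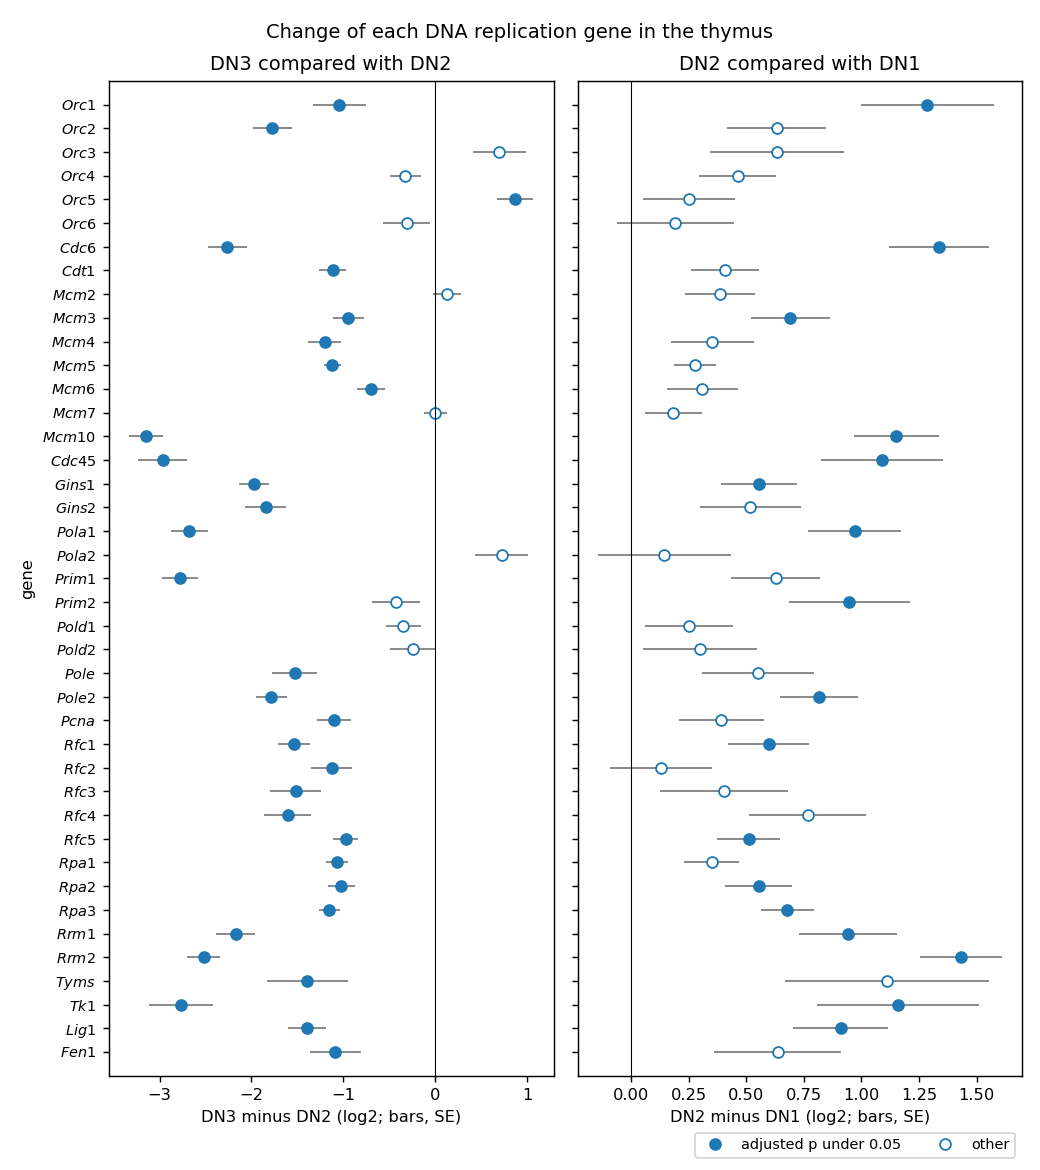
Each row is a gene, and the point is its difference (log2, bar SE) in DN3 compared with DN2 (left) and in DN2 compared with DN1 (right), filled where the adjusted p is under 0.05. On the left, 31 filled points lie below 0 and only Orc5 above it, and on the right all 41 points lie above 0, of which 17 are filled.

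Among primase and the polymerases 4 of 8 members fell. Prim1, the catalytic subunit of primase, was at 10.61, 10.60 and 11.33 in DN3, against 13.55, 13.48 and 13.84 in DN2, which is 6.87-fold lower (-2.78, SE 0.19, adjusted p = 1.23e-09). Pola1, the catalytic subunit of the polymerase that primase works with, was at 9.01, 9.32 and 8.67 in DN3, against 11.44, 11.70 and 11.89 in DN2 (-2.68, SE 0.20, adjusted p = 3.49e-09). Neither gene's groups overlapped. Pole and Pole2, of the leading strand polymerase, fell by 1.53 and 1.78 log2 units. The partner subunits Prim2 (-0.43, adjusted p = 0.265) and Pola2 (0.73, adjusted p = 0.0655), and the lagging strand polymerase genes Pold1 (-0.35) and Pold2 (-0.24), did not pass. The estimates of Prim1 and Prim2, and of Pola1 and Pola2, were thus unlike, while those of Pole and Pole2, and of Pold1 and Pold2, were alike, and no difference between subunits was tested.

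All 6 genes of the clamp and its loader fell, by 0.98 to 1.61 log2 units. Pcna, the sliding clamp, was at 13.44, 13.33 and 14.06 in DN3, against 14.42, 14.94 and 14.79 in DN2, with no overlap. Rfc4 fell the most and Rfc5 the least of the loader subunits. All 3 genes of the single-strand binding protein RPA fell, Rpa3 by 1.15, Rpa1 by 1.07 and Rpa2 by 1.02 log2 units.

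All 4 genes of nucleotide supply fell. Rrm2, the cell cycle regulated subunit of ribonucleotide reductase, was at 11.01, 10.83 and 11.11 in DN3, against 13.70, 13.50 and 13.31 in DN2 (-2.52, SE 0.18, adjusted p = 1.48e-09). Tk1, thymidine kinase, was at 8.21, 7.86 and 9.17 in DN3, against 10.78, 11.58 and 11.18 in DN2 (-2.77, SE 0.35, adjusted p = 4.11e-06). DN3 replicate 3 was the highest DN3 array for Tk1 and the groups were still 1 log2 unit or more apart. Rrm1, the other reductase subunit, fell by 2.17 and Tyms by 1.39 log2 units. Lig1 and Fen1, which finish Okazaki fragments, also fell. For Fen1 the groups overlapped, since its level was 11.88, 12.18 and 13.63 in DN3, against 13.50, 13.78 and 13.66 in DN2.

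Of the 32 members that passed in DN3 compared with DN2, 24 have further probe sets, of which 16 had another one that passed in the same direction and 0 had one in the opposite direction. Other replication genes moved alike. Of 29 other measured replication genes 24 fell and 0 rose, among them Chtf18 of an alternative clamp loader (-2.92), Top2a, a topoisomerase (-2.87), and Dscc1 of the same loader (-2.48). Of 17 genes listed as regulators of S phase entry, which mix activators and inhibitors and include the marker Mki67, 8 fell and 1 rose. Ccna2, cyclin A2, fell by 4.49, Mki67, the proliferation marker Ki-67, by 3.92 and Ccne2, a cyclin E, by 3.37 log2 units, while Rbl2, a relative of the retinoblastoma protein, rose by 0.83.

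Other measures moved with this comparison. The poly-A controls averaged 12.17 in DN3 and 2.56 in DN2, and with the spike-in cluster as a random block 28 members fell and 1 rose. DN2 and DN3 share no cluster, so population and cluster cannot be told apart, and this block does not separate them. The summed level of 8 handling response genes such as Fos and Jun was 10.49 to 14.65 in DN3 and 14.92 to 16.75 in DN2. The summed level of 6 macrophage and dendritic cell markers was 5.55 to 5.89 in DN3 and 6.59 to 7.15 in DN2, with 3 and 2 of 6 within 1 of the floor on all arrays. Of 4 measured markers of later thymocytes 3 were within 1 of the floor in DN3 and 2 in DN2, and the sum was 4.50 to 4.69 in DN3 and 4.50 to 5.29 in DN2. The sum of 5 NK markers was 12.60 to 13.15 in DN3 and 9.88 to 10.96 in DN2, set mainly by Gzma, with Ncr1 at the floor in both, and that of 5 B cell markers was 9.83 to 10.73 in DN3 and 8.29 to 8.78 in DN2, set by Cd79b, with Cd79a, Ms4a1, Pax5 and Ebf1 near the floor. The part of the handling genes and of these cell types in the result was not tested.

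The step before it ran the opposite way. In DN2 compared with DN1, 17 of 41 members rose, where 3.99% of all genes rose, and 0 fell, where 4.12% of all genes fell. Among the 9097 genes above the median level 557 rose and 604 fell. All 41 estimates of the members were positive, with a median of 0.55 log2 units, against 0.05 over those genes. DN1 and DN2 arrays belong to the same spike-in cluster. The call depends on the arrays used. Without the 4 arrays with Xist signal, which leaves 1 array per group, all 41 estimates were positive. Without DN2 replicate 2 or replicate 3 the count was 8 or 10, and all 41 estimates were again positive. In a fit to the 6 DN1 and DN2 arrays alone the count was 1. Its estimates are the same differences of group means as in the main fit, so their signs could not change. Without DN1 replicate 2 the count was 13, and 37 estimates were positive and 4 negative, those of Orc6, Pola2, Pold2 and Rfc2 (-0.14 to -0.02, none passing).

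Of the 4 nucleotide supply genes 3 rose, and Rrm2 had the largest rise of any member. It was at 13.70, 13.50 and 13.31 in DN2, against 11.96, 12.25 and 12.01 in DN1 (1.43, SE 0.18, adjusted p = 1.94e-05), and its groups were over 1 log2 unit apart. Tk1 was at 10.78, 11.58 and 11.18 in DN2, against 10.17, 9.17 and 10.73 in DN1, with groups that nearly touched (1.16, SE 0.35, adjusted p = 0.0483). Rrm1 rose by 0.94, and Tyms, with 1.11 (SE 0.44), did not pass. Among loaders and activators Cdc6 was at 12.37, 12.58 and 12.67 in DN2, against 11.54, 11.37 and 10.71 in DN1 (1.34, SE 0.22, adjusted p = 0.000399). Mcm10 was at 10.96, 11.12 and 11.31 in DN2, against 10.31, 9.79 and 9.84 in DN1 (1.15, SE 0.19, adjusted p = 0.000373). Cdc45 rose 2.13-fold (1.09, SE 0.27, adjusted p = 0.0129), and Gins1 by 0.55 log2 units.

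Of the origin recognition complex Orc1 alone rose, at 7.69, 7.98 and 8.37 in DN2, against 7.08, 7.01 and 6.10 in DN1 (1.29, SE 0.29, adjusted p = 0.00707). Of the MCM subunits Mcm3 alone passed, with 0.69, and the other estimates lay between 0.18 for Mcm7 and 0.39 for Mcm2. Pola1, Prim2 and Pole2 rose by 0.97, 0.95 and 0.82 log2 units, and Rfc1, Rfc5, Rpa2, Rpa3 and Lig1 by 0.51 to 0.91. Without the arrays with Xist signal Rrm2 (1.44), Mcm10 (1.17), Pole2 (0.90) and Rfc5 (0.88) still passed. Beyond the members, 15 of 29 other replication genes rose and 0 fell, with Asf1b, a histone chaperone, at 1.59, Mcm8 at 1.41 and Clspn, a fork checkpoint protein, at 1.32. Of the S phase regulators 7 of 17 rose, with the cyclin-dependent kinase inhibitor Cdkn1a at 2.13, Ccne2 at 1.64 and E2f2 at 1.44, and the repressor E2f7 fell by 1.16. The summed macrophage and dendritic cell markers were 6.59 to 7.15 in DN2 and 12.18 to 12.64 in DN1, with Csf1r at 5.15 and 12.43, and 2 and 1 of 6 were within 1 of the floor on all arrays. Their part in the result was not tested.

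**Figure D4:**
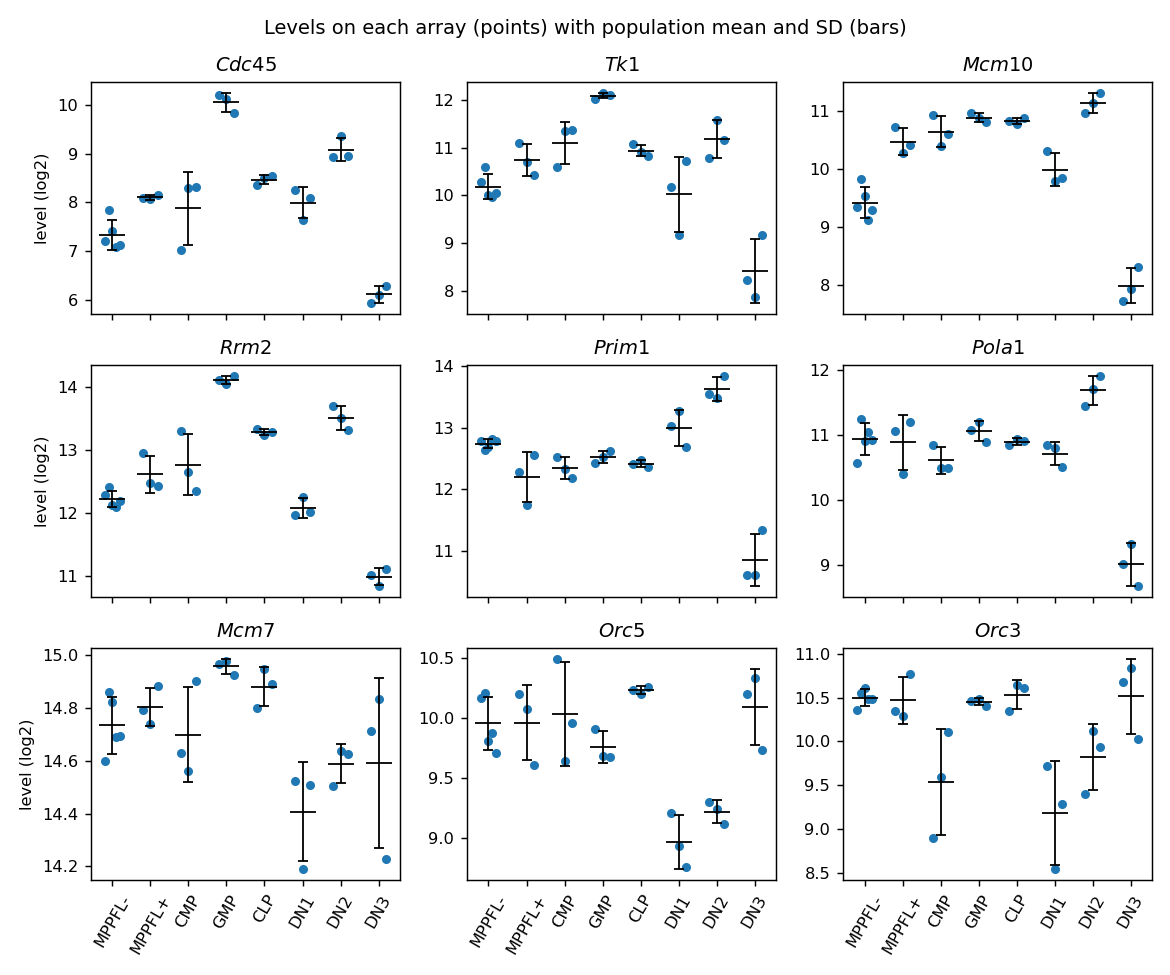
Points are arrays, bars the population mean and SD, and the y axis gives the level (log2, on a scale of its own for each gene) of the 6 genes with the largest ranges and of Mcm7, Orc5 and Orc3. The first 6 genes are lowest in DN3, Cdc45, Tk1 and Rrm2 are highest in GMP, and Orc5 is lowest in DN1 and DN2.

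From bone marrow to thymus falls outnumbered rises. In DN1 compared with CLP 17 of 41 fell, where 18.8% of all genes fell, and 4 rose, where 8.03% of all genes rose. Among the 9097 genes above the median level 2984 fell and 1203 rose. The median change of the members was -0.47 log2 units, against -0.29 over those genes, and 33 of 41 estimates were negative. Quantile normalization, which moved the median over the genes above the median level by 0.28, left 15 falls and 4 rises. With the spike-in cluster as a random block 7 fell and 1 rose. CLP and DN1 share no cluster, so here too population and cluster cannot be told apart. Without the arrays with Xist signal, which leaves DN1 replicate 2 as the only DN1 array, 32 of 41 estimates were negative and 9 positive.

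Polymerase subunits and subunits of the origin recognition complex were prominent among the falls. Pola2, the regulatory subunit of the primase polymerase, was at 9.29, 8.65 and 9.70 in DN1, against 10.92, 11.16 and 10.92 in CLP (-1.79, SE 0.29, adjusted p = 9.67e-05). Pole was at 10.46, 9.76 and 10.75 in DN1, against 12.11, 12.11 and 11.69 in CLP (-1.64, SE 0.24, adjusted p = 3.67e-05). Orc5 was at 9.20, 8.93 and 8.76 in DN1, against 10.23, 10.19 and 10.26 in CLP (-1.26, SE 0.20, adjusted p = 8.34e-05). In each of them every DN1 array was below every CLP array. Orc3 fell by 1.35 (SE 0.29, adjusted p = 0.00141), Rrm2 by 1.20 (SE 0.18, adjusted p = 3.94e-05) and Lig1 by 1.17 log2 units (SE 0.21, adjusted p = 0.000229), and Orc6 and Orc1 by 1.16 each. Another probe set of Orc3, of Orc1 and of Pole2 passed in the opposite direction, and with the mean of all probe sets Orc1 (0.66, adjusted p = 0.272) and Pole2 (0.55, adjusted p = 0.162) had positive estimates.

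Rfc3, a clamp loader subunit, rose, at 9.39, 9.24 and 9.99 in DN1, against 8.18, 7.69 and 7.93 in CLP (1.60, SE 0.28, adjusted p = 0.000184). Orc2 rose by 0.71 with overlapping groups, Prim1 by 0.58 and Rpa3 by 0.39 log2 units. Of the other replication genes 16 of 29 fell, with Clspn and Asf1b at -1.54 each and Pold3 at -1.47, and Rnaseh2a rose by 0.94. Of the S phase regulators 11 of 17 fell and 0 rose, led by Cdk2, the kinase of cyclins E and A, at -2.29, Cdkn1a at -2.28 and E2f8 at -2.21. The summed handling response genes were 15.76 to 17.14 in DN1 and 14.23 to 14.75 in CLP, and their part in the result was not tested.

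Among the bone marrow multipotent progenitors, MPPFL+ compared with MPPFL- had 7 members that rose, where 10.6% of all genes rose, and 3 that fell, where 5.25% of all genes fell. Among the 9097 genes above the median level 1591 rose and 718 fell, and neither share was smaller than among the members. The median change of the members was 0.13 log2 units, against 0.12 over those genes. With array weights 22 members passed, among them all 10, and with the mean of probe sets 19, among them 8 of the 10, and other alternatives gave as few as 6. The control probe sets differed between 3' and 5' ends by 2.86 to 2.99 log2 units in MPPFL+ and 3.13 to 3.95 in MPPFL-. With this difference as a covariate 8 members passed, of which 6 were among the 10. Orc1 was at 7.52, 6.94 and 7.20 in MPPFL+, against 6.30, 6.19, 5.55, 5.75 and 6.51 in MPPFL- (1.16, SE 0.26, adjusted p = 0.00363). Mcm10 was at 10.72, 10.27 and 10.40 in MPPFL+, against 9.34, 9.81, 9.52, 9.11 and 9.29 in MPPFL-, which is 2.06-fold higher (SE 0.17 log2 units, adjusted p = 0.000182). Both genes had no overlap between the groups. Pold2, Rfc5, Cdc45, Fen1 and Rpa2 rose by 0.62 to 0.85 log2 units.

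Rpa3, the smallest RPA subunit, fell, at 9.50, 9.35 and 9.80 in MPPFL+, against 10.50, 10.18, 10.23, 10.26 and 10.20 in MPPFL- (-0.73, SE 0.10, adjusted p = 6.65e-05). Rfc3 fell by 1.05 and Prim1 by 0.55 log2 units. Both directions thus occurred within the clamp loader and within RPA, where Rfc5 and Rpa2 rose. Of the other replication genes 11 of 29 rose and 0 fell, with Ticrr, an origin firing factor, at 1.36, Dbf4, the activator of the Cdc7 kinase, at 0.84 and Chtf18 at 0.80. Of the S phase regulators 3 of 17 rose, Cdkn1a by 2.27, E2f2 by 1.64 and Cdk2 by 1.45, and Cdkn1c, the p57 inhibitor, fell by 1.79 log2 units.

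In CMP compared with MPPFL+ 10 members fell, where 18.7% of all genes fell, and 3 rose, where 5.39% of all genes rose. Among the 9097 genes above the median level 2886 fell and 700 rose, and neither share was smaller than among the members. The median change of the members was -0.17 log2 units, against -0.35 over those genes. The split of the members depends on the scaling, since quantile normalization, which moved the median of those genes by 0.35, left 4 falls and 6 rises, with a members' median of 0.10. Orc4 was at 9.17, 9.10 and 8.69 in CMP, against 9.90, 9.82 and 10.14 in MPPFL+ (-0.97, SE 0.17, adjusted p = 0.000238). Mcm6 was at 13.61, 13.97 and 13.43 in CMP, against 14.40, 14.40 and 14.64 in MPPFL+ (-0.81, SE 0.15, adjusted p = 0.000662). Neither had overlapping groups. Pola2 (2.00-fold lower), Pole (-0.98), Orc3 (-0.93), Prim2 (-0.83), Mcm4, Pole2, Pold1 and Rpa1 also fell, so that 5 of 8 genes of primase and the polymerases did.

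Rrm1, Gins1 and Rpa3 rose, by 0.65, 0.55 and 0.43 log2 units, with overlapping groups for Rrm1. Other probe sets of Pola2 and of Rrm1 passed in the opposite direction, and with the mean of its probe sets Pola2 was higher in CMP, by 0.51 (adjusted p = 0.0113). In a fit to the 6 arrays compared 0 members passed, with the spike-in cluster as a random block 1 did, and without CMP replicate 1 or MPPFL+ replicate 3 the count was 8 or 6. The poly-A controls averaged 9.98 in CMP and 4.59 in MPPFL+. The 3' to 5' control difference was 2.03 to 2.41 log2 units in CMP and 2.86 to 2.99 in MPPFL+. With it as a covariate 11 members passed, of which 9 were among the 13. The summed macrophage and dendritic cell markers were 12.44 to 13.93 in CMP and 9.96 to 10.61 in MPPFL+, with 2 and 1 of 6 within 1 of the floor on all arrays. The summed late erythroid markers were 8.88 to 9.12 in CMP and 4.71 to 6.05 in MPPFL+, with 1 and 3 of 4 within 1 of the floor. Their part in the result was not tested. Outside the members, 2 of the 29 other replication genes rose and 7 fell, with Rrm2b, the damage-inducible reductase subunit, at -1.30, Rnaseh2a at 1.22 and Pole4 at -0.94. Among the S phase regulators 4 of 17 rose, with E2f1 at 2.11 and Ccne1 at 1.91, and 3 fell, with Rbl2 at -1.32.

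In GMP compared with CMP 8 members rose, where 13.8% of all genes rose, and 0 fell, where 7.63% of all genes fell. Among the 9097 genes above the median level 2011 rose and 1147 fell, and neither share was smaller than among the members. The median change of the members was 0.26 log2 units, against 0.17 over those genes, which quantile normalization moved by -0.17. After it 3 members rose and 2 fell. Cdc45 was at 10.20, 10.13 and 9.84 in GMP, against 7.02, 8.30 and 8.32 in CMP, which is 4.52-fold higher (2.18, SE 0.27, adjusted p = 5.51e-06). Rrm2 was at 14.10, 14.04 and 14.17 in GMP, against 13.29, 12.64 and 12.34 in CMP (1.35, SE 0.18, adjusted p = 1.49e-05). Cdc6 was at 12.84, 12.84 and 12.95 in GMP, against 11.69, 12.10 and 11.50 in CMP (1.12, SE 0.22, adjusted p = 0.000837). The groups of these 3 genes did not overlap, and the GMP arrays lay closer together than the CMP arrays.

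Orc3, Mcm3, Mcm4, Pole2 and Mcm6 rose by 0.56 to 0.92 log2 units. With the spike-in cluster as a random block 3 members rose, in a fit to the 6 arrays compared 2 did, and without CMP replicate 2 the count was 13. The 3' to 5' control difference was 1.66 to 1.76 log2 units in GMP and 2.03 to 2.41 in CMP. With it as a covariate 9 members passed, of which 7 were among the 8. Tk1 was at 12.04, 12.15 and 12.11 in GMP, its highest population, against 10.60, 11.35 and 11.37 in CMP, and the difference of 0.99 (SE 0.35, adjusted p = 0.0507) did not pass. Of the other replication genes 8 of 29 rose and 1 fell, with Pold4, a small polymerase delta subunit, at 1.31 and Rrm2b at 1.10. Of the S phase regulators 3 of 17 rose, with Ccne2 at 1.63 and Cdk2 at 1.03, and 2 fell, Cdkn1a by 2.76 and Cdkn1c by 1.84 log2 units. The summed mature neutrophil markers were 13.39 to 13.88 in GMP and 10.28 to 12.81 in CMP, and their part in the result was not tested.

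In CLP compared with MPPFL+ 1 member rose, where 2.53% of all genes rose, and 0 fell, where 4.01% of all genes fell. Among the 9097 genes above the median level 304 rose and 459 fell. Rrm2 was at 13.32, 13.23 and 13.27 in CLP, against 12.95, 12.46 and 12.42 in MPPFL+ (0.67, SE 0.18, adjusted p = 0.0261). Its groups did not overlap, but it did not pass without any 1 of the CLP replicates 1, 2 and 3 or of the MPPFL+ replicates 2 and 3. The median over the members was 0.19 log2 units, with 33 of 41 estimates positive, against 0.01 over the genes above the median level, and it was 0.18 after quantile normalization. Rnaseh2b alone rose among the other replication genes, by 0.39. Of the S phase regulators 4 of 17 rose, with Cdkn1a at 2.47, Ccne1 at 1.29 and E2f2 at 0.93.

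In CLP compared with GMP 8 members were higher, where 16.7% of all genes were, and 6 were lower, where 11.6% of all genes were. Both counts are near the share over all genes. Among the 9097 genes above the median level 2620 were higher and 1530 lower. For the members, quantile normalization gave 9 higher and 5 lower, and the spike-in cluster as a random block gave 2 and 1. The control probe sets differed between 3' and 5' ends by 2.78 to 3.16 log2 units in CLP and 1.66 to 1.76 in GMP, and with this difference as a covariate 11 members passed, of which 7 were among the 14. The summed mature neutrophil markers were 4.95 to 5.21 in CLP and 13.39 to 13.88 in GMP, with 5 and 0 of 6 within 1 of the floor on all arrays, and their part in the result was not tested. Cdc45 was at 8.36, 8.51 and 8.54 in CLP, against 10.20, 10.13 and 9.84 in GMP, which is 3.00-fold lower (SE 0.27 log2 units, adjusted p = 0.000109). Tk1 (-1.15, SE 0.35, adjusted p = 0.0168), Rfc3 (-1.12), Rrm1 (-0.87), Rrm2 (-0.83) and Cdc6 (-0.65) were also lower in CLP, so that 3 of 4 nucleotide supply genes were. Orc4 was higher, at 10.15, 10.11 and 10.18 in CLP, against 8.75, 8.77 and 8.90 in GMP (1.34, SE 0.17, adjusted p = 3.04e-06). Pole (1.15), Pold1 (0.87), Pola2 (0.79) and Prim2 (0.75) were higher as well, which is 4 of 8 genes of primase and the polymerases, with Orc6, Rfc1 and Rpa1. The count was 8 without CLP replicate 3 or GMP replicate 2, and 9 without CLP replicate 2 or GMP replicate 3. Of the other replication genes 7 of 29 were higher and 3 lower, and of the S phase regulators 4 of 17 and 2, with Cdkn1a at 3.72 and Cdkn1c at 2.43.

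**Figure D5:**
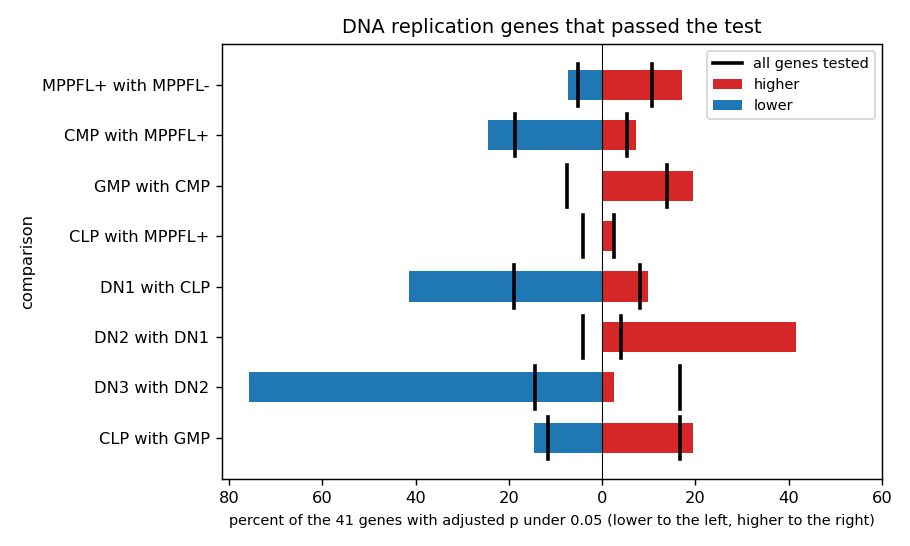
Bars give the percent of the 41 genes that were higher (red, to the right) or lower (blue, to the left) with an adjusted p under 0.05 in each comparison, and black lines give the same percent over all 18194 genes. The bars pass the lines most clearly for lower genes in DN3 with DN2, where 31 of 41 genes fell against 14.4%, and for higher genes in DN2 with DN1, where 17 rose against 3.99%.

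Across the 8 comparisons, several of which share a population, each member passed at least once. Rrm2 passed in 6 of them, 4 members in 5, 8 in 4, 11 in 3, 8 in 2 and 9 in 1. Of 85 calls in members with further probe sets, 39 had another that passed in the same direction and 5 in the opposite direction. The same-direction count was 16 of 24 in DN3 with DN2 and 7 of 13 in DN1 with CLP. In DN2 with DN1 it was 4 of 12, in MPPFL+ with MPPFL- 2 of 7 and in CLP with MPPFL+ 1 of 1. In CMP with MPPFL+ it was 3 of 11, in GMP with CMP 3 of 7 and in CLP with GMP 3 of 10. Over the 41 members alone, 21 of 26 arrays were most similar to an array of their own population. The exceptions were MPPFL+ replicates 1 and 3, CMP replicate 1 and CLP replicates 1 and 2, of which the MPPFL+ and CLP arrays were nearest to each other's population.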

How the data were processed

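The authors deposited 1 table of log2 values per probe set for 26 arrays. Their normalization and summary per probe set are not stated in the labels or the file, and per the labels RNA was extracted with Trizol and labelled with biotin. Values were used as deposited, with no filter on dim genes. Of 45101 probe sets, 34958 are annotated to 1 gene and 932 to several, and the rest were not named. The brightest probe set by mean stood for each of 18194 genes. Depth does not apply to arrays, and their number limits the precision. All arrays were fitted in limma 3.58.1 (R 4.3.3) with lmFit and eBayes, population being the only term, with 18 residual degrees of freedom, and 8 comparisons and an F test were adjusted by Benjamini-Hochberg over all genes, two-sided. The procedure was tested on simulated data.

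The members, the other lists, the comparisons and the rule for naming genes were chosen with earlier results of these data known. All members may be named. In each comparison up to 6 members in each direction have full statistics, and up to 3 genes of each other list are named. Xist, Eif2s3y, the leading genes of the marker lists, and Rbl2, E2f7, Cdk2 and Rnaseh2a where they exceed that number were chosen after their values were seen. Of the other replication genes, 29 were measured, and others are not analysed here. Groups came from the sample titles. Alternatives were quantile normalization, the mean of a gene's probe sets, a filter at the median gene mean of 5.31, the arrays compared alone, the replicate number as a block, array weights, the 3' to 5' control difference as a covariate, the spike-in cluster as a random block and leaving out each array. Leaving out the arrays with Xist above 5 and the fit on every probe set were chosen after seeing the data. Same-numbered arrays did not deviate together (correlations of their deviations from -0.478 to 0.487), so numbers were not taken as pairs. A summed level is the log2 of the sum of linear values over a list.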

Additional observations from a re-analysis of the deposited data

Results flagged for a closer look

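Within MPPFL-, the only population with over 3 arrays, 3 of the 41 members had 1 array set apart from the other 4. Mcm2 was at 12.51 on replicate 5, against 12.04 to 12.17 on the others. On replicate 1, Rpa3 was at 10.50, against 10.18 to 10.26, and Rrm1 was at 12.33, against 11.95 to 12.05. Chance sets an array apart in about 1 in 20 such groups.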

How the results depend on the processing

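The main counts of members that passed were 10 in MPPFL+ with MPPFL-, 13 in CMP with MPPFL+, 8 in GMP with CMP, 1 in CLP with MPPFL+, 21 in DN1 with CLP, 17 in DN2 with DN1, 32 in DN3 with DN2 and 14 in CLP with GMP, and 40 varied by the F test. In DN3 with DN2 the count lay between 28 and 35 under the alternatives run, with 27 of the 32 among the 28 called without the arrays with Xist signal and all 32 among the 35 called without DN3 replicate 3, which had 4 rises in place of 1. Array weights and the filter on dim genes gave 3 rises each, and the mean of probe sets 2. The count by the F test lay between 36 and 41. Quantile normalization gave 5 in GMP with CMP and 0 in CLP with MPPFL+. The mean of probe sets gave 19 in MPPFL+ with MPPFL- and 15 in GMP with CMP, and turned the sign of Pola2 in CMP with MPPFL+ (0.51) and of Orc1 (0.66) and Pole2 (0.55) in DN1 with CLP. Fits to only the arrays compared gave 0 in CMP with MPPFL+, 2 in GMP with CMP, 0 in CLP with MPPFL+ and 1 in DN2 with DN1. Array weights gave 22 in MPPFL+ with MPPFL-, 3 in CLP with MPPFL+ and 9 in DN2 with DN1. The 3' to 5' covariate gave 2 in CLP with MPPFL+. The spike-in cluster as a random block gave 1 in CMP with MPPFL+, 3 in GMP with CMP, 2 in CLP with MPPFL+, 8 in DN1 with CLP and 3 in CLP with GMP. Without the arrays with Xist signal, DN2 with DN1 gave 4. The replicate block gave 6 in MPPFL+ with MPPFL- and moved no other count by over 1.5 times, with 13 in DN2 with DN1. Causes were not tested, but fits to fewer arrays have fewer degrees of freedom.

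Leaving out 1 array at a time gave 7 to 9 in MPPFL+ with MPPFL-, 6 to 12 in CMP with MPPFL+ (8 without CMP replicate 1 and 6 without MPPFL+ replicate 3), 6 to 13 in GMP with CMP (13 without CMP replicate 2), 0 to 1 in CLP with MPPFL+ (0 without CLP replicate 1, 2 or 3 or MPPFL+ replicate 2 or 3), 17 to 19 in DN1 with CLP, 8 to 15 in DN2 with DN1 (8 without DN2 replicate 2 and 10 without DN2 replicate 3), 31 to 35 in DN3 with DN2, 8 to 10 in CLP with GMP (8 without CLP replicate 3 or GMP replicate 2, 9 without CLP replicate 2 or GMP replicate 3) and 40 to 41 for the F test. Of 1714 refits of single members that had passed, 1354 kept their direction and still passed, 357 kept their direction but did not pass, and 3 turned. All 3 turned with the mean of probe sets. The filter on dim genes and the fits to only the arrays compared keep the same group means, so in them no direction could turn. The number of arrays limits what small differences can show.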
